A study of Mus musculus with 6 samples.

Results

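The chloride secretion genes of cyst epithelium were taken as *Cftr*, *Ano1*, *Ano6*, *Slc12a2*, *Kcnn4*, *P2ry2* and *Lrrc8a*, which are 7 of the 55367 gene symbols in each library. They were chosen by name, but with earlier results of these data known. RNA-seq covered kidney cells selected with DBA, a *Dolichos biflorus* lectin that binds collecting duct epithelium, with 2 libraries in each of 3 groups, all collected on Day115 by the labels. The WT group came from saline-treated wild-type mice. The ADPKD group came from saline-treated mice in which *Pkd1*, the gene most often mutated in autosomal dominant polycystic kidney disease, had been deleted. These mice were Pkd1 fl/fl;Cre/Esr1+ males in which tamoxifen, given by intraperitoneal injection, switched the Cre recombinase on. The ADPKD+MMPP group came from ADPKD mice that received MMPP, a melanin-like nanoparticle carrying polyethylene glycol and chelated manganese, by repeated intravenous injection in saline. The methods do not state the promoter of the Cre transgene, whether the WT mice carried it, or whether a library held cells of 1 animal, so p-values measure only the spread between these libraries. The extract protocol names both lectin-selected cells and whole kidney as the source of RNA.

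Renal cysts fill in part because their lining cells move chloride from the blood side to the lumen, and sodium and water follow. The basolateral cotransporter NKCC1 (*Slc12a2*) brings chloride into the cell, a basolateral potassium channel such as KCa3.1 (*Kcnn4*) keeps the membrane voltage that drives chloride out, and apical channels let it leave. CFTR (*Cftr*) opens after cAMP rises, whereas TMEM16A (*Ano1*) opens after calcium rises, for example when extracellular ATP activates the P2Y2 receptor (*P2ry2*). TMEM16F (*Ano6*) is a calcium-activated phospholipid scramblase that also conducts ions, and LRRC8A (*Lrrc8a*) is the subunit that every volume-regulated anion channel needs. NKCC1 and TMEM16A are also made outside epithelia, in vascular and other cells.

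The promoters of the genes were looked at for the cAMP response element (CRE), the site bound by the factor CREB that the study is concerned with. RefSeq promoters on GRCm38.p6, each running from 250 bases before to 50 bases after a start site, were at hand for 6 of the 7 genes. On either strand, the full site TGACGTCA occurred in 1.79% of all 32851 promoters and its short core TGACG in 20.8%. The single-letter variant TGACATCA, searched only after the letters of these promoters had been seen, occurred in 3.62%. *Lrrc8a*, at chr2:30237519-30237818 on the plus strand, held the full site with its first base at -108, which includes the core on both strands. *Cftr*, at chr6:18170437-18170736 on the plus strand, held the variant with its first base at 14, counting the start site as 1. These promoters are shown because they hold the full site and its variant, in capitals:
Lrrc8a: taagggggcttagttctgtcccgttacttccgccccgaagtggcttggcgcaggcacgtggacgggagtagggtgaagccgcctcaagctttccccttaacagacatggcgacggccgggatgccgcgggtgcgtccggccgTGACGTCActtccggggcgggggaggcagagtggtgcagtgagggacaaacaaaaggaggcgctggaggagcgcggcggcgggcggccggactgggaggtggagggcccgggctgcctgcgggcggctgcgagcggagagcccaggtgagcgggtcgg
Cftr: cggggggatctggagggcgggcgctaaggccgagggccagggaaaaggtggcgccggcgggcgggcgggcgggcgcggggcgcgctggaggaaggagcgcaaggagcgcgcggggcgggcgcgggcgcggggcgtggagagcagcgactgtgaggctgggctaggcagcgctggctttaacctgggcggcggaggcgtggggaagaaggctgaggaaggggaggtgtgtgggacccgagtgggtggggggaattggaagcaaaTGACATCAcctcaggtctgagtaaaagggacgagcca
The promoter of *Ano6* held the core alone, on the opposite strand and from -212, and those of *Ano1*, *Kcnn4* and *P2ry2* held none of the letters searched. A match describes these letters in this window and does not show binding.

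Levels are in FPKM, fragments of a gene scaled for exon length and library size, which allows levels of different genes to be set side by side within a library. Low values, once multiplied by exon length, were whole multiples of 1 read, at 98.3% to 99.0% of values within 0.05 reads. These multiples gave 30.6 to 33.1 M reads in the WT and ADPKD libraries and 10.9 to 11.8 M in the ADPKD+MMPP libraries. In the latter only 7.44% to 7.83% of the read numbers were odd, against 35.2% to 37.8% elsewhere. As this feature of the values belongs to ADPKD+MMPP alone, it and the treatment cannot be told apart. *Pkd1* was at 17.5 ± 0.380 FPKM in WT, at 8.27 ± 0.898 in ADPKD and at 4.16 ± 0.247 after treatment (SD, n = 2 each). Replicates correlated across genes with a Pearson's r of 0.958 to 0.992, and those of each group differed by more than sampling noise.

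The principal cell marker *Aqp2* was high in every library (677 to 3555 FPKM), and *Cdh1*, an epithelial adhesion gene, lay between 102 and 242 FPKM. *Epcam*, also epithelial, was at 110 to 249 FPKM in WT and ADPKD but at 0.668 and 1.39 in ADPKD+MMPP. *Avpr2*, the vasopressin receptor of these cells, was under 0.06 FPKM in every library. Markers of other cells were present as well. The summed FPKM of 14 proximal tubule markers was 627 to 844 in WT, 1508 to 2129 in ADPKD and 23543 to 24686 after treatment. That of 6 endothelial markers was 602 to 734, 268 to 286 and 113 in the same order, and that of 10 leukocyte markers 58.4 to 59.6, 394 to 462 and 865 to 888. The higher leukocyte sum after treatment lay mostly in *Lyz2* (mean 206 FPKM in ADPKD and 566 in ADPKD+MMPP) and *C1qa* (128 and 256). *Ptprc* (2.75 and 0.407) and *Csf1r* (21.3 and 0.286) went the other way. In such a mixture, fewer cells of a type and less RNA per cell cannot be told apart.

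**Figure D1:**
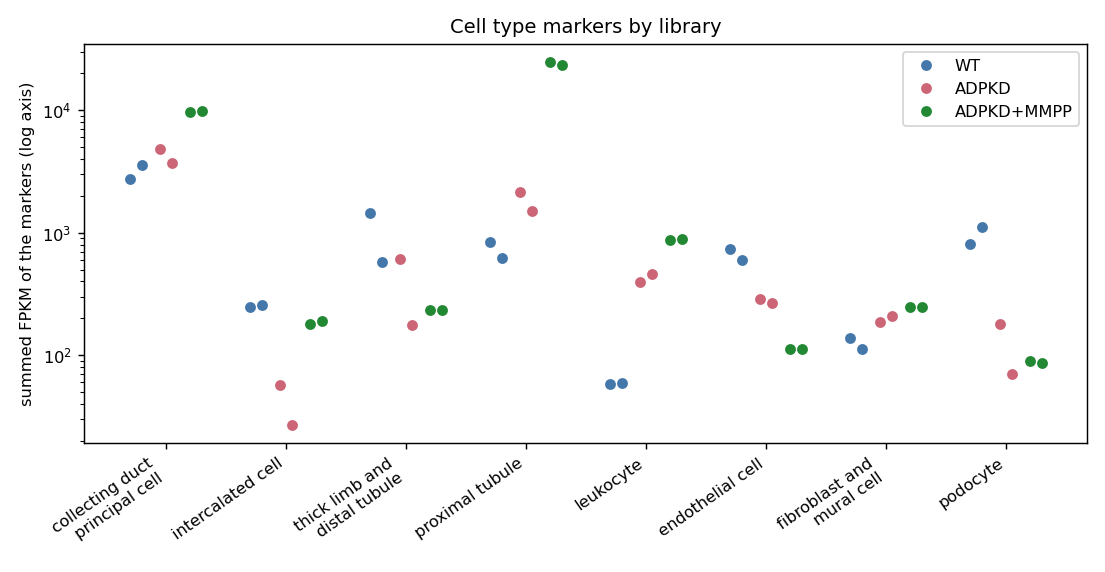
Summed FPKM (log axis) of the markers of 8 cell types in each library, coloured by group, with replicate 1 left of replicate 2. Endothelial sums are 602 to 734 in WT and 113 in ADPKD+MMPP, podocyte and intercalated cell sums are lowest in an ADPKD library, and proximal tubule sums are highest in ADPKD+MMPP.

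In WT cells the entry step stood highest. *Slc12a2* had 76.0 ± 19.0 FPKM, followed by *Ano1* (27.2 ± 6.82), *Ano6* (16.1 ± 0.219), *P2ry2* (8.29 ± 0.922), *Lrrc8a* (5.24 ± 0.462), *Kcnn4* (1.03 ± 0.0136) and *Cftr* (0.221 ± 0.229; SD, n = 2 for each). No neighbours in this order had overlapping libraries. In ADPKD the order was *Ano6* (17.2 ± 1.23 FPKM), *Slc12a2* (16.7 ± 4.0), *P2ry2* (13.8 ± 5.53), *Ano1* (6.42 ± 1.79), *Lrrc8a* (3.77 ± 0.481), *Cftr* (1.52 ± 0.917) and *Kcnn4* (1.2 ± 0.387). The libraries of *Ano6* and *Slc12a2*, of *Slc12a2* and *P2ry2*, and of *Cftr* and *Kcnn4* overlapped, so these neighbours did not differ beyond their spread. In ADPKD+MMPP the order was *Slc12a2* (19.9 ± 0.211 FPKM), *Ano6* (10.6 ± 0.385), *P2ry2* (3.97 ± 0.000491), *Ano1* (1.07 ± 0.000759), *Kcnn4* (0.294 ± 0.0407), *Lrrc8a* (0.165 ± 0.0670) and *Cftr* (0.0118 ± 0.0167), again without overlap between neighbours. Since the values in ADPKD+MMPP also moved with the transcript structure of the genes (described with the changes by transcript share), this order only describes the deposited values.

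**Figure D2:**
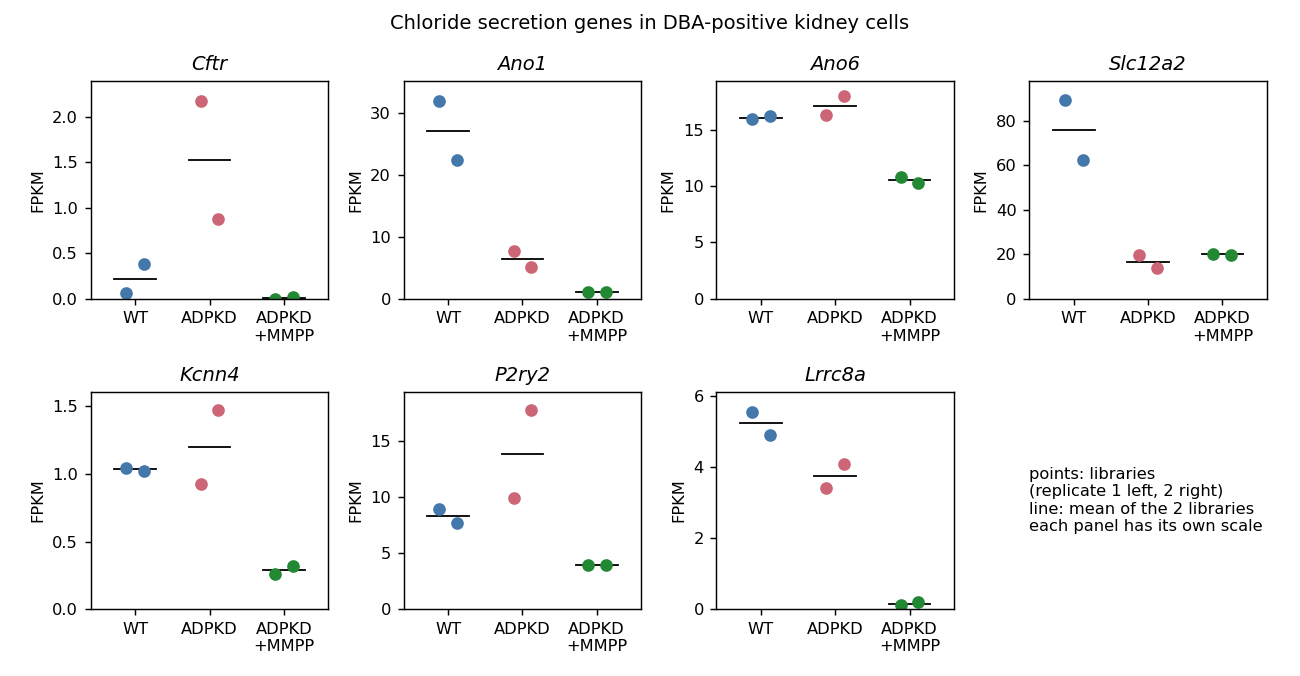
FPKM (linear axis from 0, a separate scale in each panel) of the 7 genes in each library of WT, ADPKD and ADPKD+MMPP, with a line at the mean of the 2 libraries. *Slc12a2* and *Ano1* are highest in WT, *Cftr* is highest in the ADPKD libraries, and every gene except *Slc12a2* is lowest in ADPKD+MMPP.

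The first question was how the chloride secretion genes differed between cystic and normal cells. A gene was tested where FPKM was at least 1 in at least 2 libraries, and 6 of the 7 passed. *Cftr* did not, since only ADPKD replicate 1 reached that level. Calls were made with limma on log2(FPKM + 1) and needed a change of 1.5-fold or more with P under 0.05 before adjustment. This scale understates changes of low genes. In ADPKD against WT, *Slc12a2* and *Ano1* fell and the other 4 genes were not called. This is 2 of 6 against 26.7% of all 14862 genes tested, and 12.5% were called lower. The libraries did not overlap for 5 of the 6, against a background of 67%. The median log2 fold change was -0.15 over the 6 genes and 0.03 over all genes tested.

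*Slc12a2* (chromosome 18, 57878678 to 57946821, plus strand, GRCm38) had 89.4 and 62.5 FPKM in WT, 19.5 and 13.9 in ADPKD, and 20.1 and 19.8 in ADPKD+MMPP. Both WT libraries lay far above the other 4. The log2 fold change of FPKM + 1 between ADPKD and WT was -2.12 (standard error 0.232, limma, Benjamini-Hochberg adjusted p = 0.00439), and the mean FPKM itself was 4.55-fold lower. *Ano1* (chromosome 7, 144588549 to 144751974, minus strand) had 32.0 and 22.4 FPKM in WT, 7.68 and 5.15 in ADPKD and 1.07 in each ADPKD+MMPP library. The groups did not overlap, with WT highest and ADPKD+MMPP lowest. Its log2 fold change was -1.93 (standard error 0.235, adjusted p = 0.00529 in limma), and its mean FPKM was 4.24-fold lower.

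Markers of other cells moved with these genes in the same comparison. All 6 endothelial and all 4 podocyte markers were called lower in ADPKD, as were 7 of 8 intercalated cell markers and 5 of 6 thick limb and distal tubule markers. The summed podocyte markers were 810 to 1111 FPKM in WT and 70.7 to 180 in ADPKD, and the summed intercalated cell markers 245 to 258 and 26.9 to 56.7. Of 12 principal cell markers tested, 5 were called higher and none lower. The 5 were *Krt8* (2.31), *Krt18* (1.67), *Epcam* (1.13) and *Cdh1* (0.97), which other epithelia also express, and *Aqp4* (1.26). *Aqp2* (-0.63), *Aqp3* (-0.79), *Scnn1g* (-0.65) and *Hsd11b2* (-1.32) were not called. The part of these cells in the values of *Slc12a2* and *Ano1* was not tested.

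*Cftr* (chromosome 6, 18170687 to 18322768, plus strand) had 0.0590 and 0.383 FPKM in WT, which correspond to 14 and 92 reads. It had 2.17 and 0.876 FPKM in ADPKD, or 558 and 218 reads, and 0 and 0.0236 FPKM in ADPKD+MMPP, or 0 and 2 reads. Each ADPKD library lay above all other libraries, and the replicates of both WT and ADPKD differed widely. Relative to depth, the pooled ADPKD reads (776) were 6.92 times those of WT (106), with a 95% interval of 5.64 to 8.55 that covers counting error only. When no filter on low values was set, limma gave 1.01 on the log2 scale for ADPKD against WT (standard error 0.295, adjusted p = 0.120), which passed the thresholds where 13.1% of the 31205 genes did. Of the exon bases of *Cftr*, 129 are shared with *Gm15592* on the opposite strand, and whether strand was used in counting is not stated.

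*P2ry2* (chromosome 7, 100996568 to 101012866, minus strand) had 8.94 and 7.64 FPKM in WT, 9.91 and 17.7 in ADPKD and 3.97 in each ADPKD+MMPP library. ADPKD replicate 2 stood apart from the rest. The difference between ADPKD and WT, 0.62 on the log2 scale, missed the threshold (standard error 0.262, adjusted p = 0.134 in limma). It came to 1.01 and passed when ADPKD replicate 1 was left out, a fit in which replicate 2 alone stood for ADPKD. Replicate 1 of ADPKD (9.91 FPKM) lay close to replicate 1 of WT (8.94), so the size of the rise depended on 1 library.

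*Lrrc8a* (chromosome 2, 30237715 to 30263790, plus strand) had 5.56 and 4.91 FPKM in WT, 3.42 and 4.11 in ADPKD, and 0.118 and 0.213 in ADPKD+MMPP. The ADPKD libraries lay below those of WT. The log2 fold change was -0.39 (standard error 0.136, adjusted p = 0.0881 in limma), under the fold change needed for a call. Of its 4308 exon bases, 2853 are shared with *Gm28035* on the same strand, which was listed at 0 in all libraries, so the level of *Lrrc8a* is uncertain.

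*Ano6* (chromosome 15, 95790843 to 95974751, plus strand) had 16.0 and 16.3 FPKM in WT, 16.3 and 18.0 in ADPKD, and 10.8 and 10.3 in ADPKD+MMPP. *Kcnn4* (chromosome 7, 24370263 to 24386690, plus strand) had 1.04 and 1.02 FPKM in WT, 0.922 and 1.47 in ADPKD, and 0.265 and 0.323 in ADPKD+MMPP. The ADPKD libraries of *Kcnn4* spanned those of WT, and those of *Ano6* lay just above them. The log2 fold changes against WT were 0.09 for *Ano6* (standard error 0.117, adjusted p = 0.623 in limma) and 0.10 for *Kcnn4* (standard error 0.153, adjusted p = 0.661). Genes on the opposite strand share 214 (*A130051J06Rik*) and 122 (*Gm49172*) exon bases with *Ano6*, and *1700084E18Rik* shares 91 with *Lrrc8a*.

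The next question was how the same genes stood after MMPP treatment. In ADPKD+MMPP against ADPKD, 5 of the 6 tested genes fell and *Slc12a2* was not called. Of all genes tested, 70.9% were called in this comparison, 43% lower and 27.9% higher. The libraries did not overlap for any of the 6, as for 87.8% of all genes. The median log2 fold change was -1.14 over the 6 genes and -0.36 over all genes tested.

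*Lrrc8a* fell by 2.03 (standard error 0.136, limma, Benjamini-Hochberg adjusted p = 7.95e-05), the largest change of the 6 on this scale. It had 488 and 567 reads in ADPKD and 6 and 10 in the less deeply sequenced treated libraries. Its mean FPKM, which allows for depth, was 22.8-fold lower. *Ano1* fell by 1.82 (standard error 0.235, adjusted p = 0.000839) and *P2ry2* fell by 1.52 (standard error 0.262, adjusted p = 0.00267 in limma). *Kcnn4* and *Ano6* had smaller changes on this scale. In mean FPKM, however, *Kcnn4* was 4.07-fold lower, *P2ry2* 3.48-fold and *Ano6* 1.63-fold. *Kcnn4* fell by 0.75 (standard error 0.153, adjusted p = 0.00537 in limma), with 16 and 18 reads left in the treated libraries, and *Ano6* fell by 0.65 (standard error 0.117, adjusted p = 0.00321). Neither was called when ADPKD replicate 2 was left out, with -0.57 for *Kcnn4* and -0.58 for *Ano6*, which left 3 calls. With quantile normalization *Kcnn4* (-0.04) and *Ano6* (-0.46) were not called either, nor was *Ano6* with TMM-type factors (-0.34). *Slc12a2* had a log2 fold change of 0.26 (standard error 0.232, adjusted p = 0.337 in limma). In the same comparison 12 of 14 proximal tubule markers and 6 of 8 intercalated cell markers were called higher, and 4 of 6 endothelial markers lower. The 9 leukocyte markers tested were split, with 4 called higher and 5 lower. Their part in these values was not tested.

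*Cftr* was at the floor of the treated libraries, where 3 reads correspond to 0.0327 and 0.0354 FPKM. Relative to depth, ADPKD held 135 times the *Cftr* reads of ADPKD+MMPP, with a 95% counting interval of 37.3 to 1119 that rests on 2 reads in the treated group. Because few read numbers there were odd, single reads may not have been independent, and this interval and the precision of the other low read numbers in the treated libraries may be overstated. Without a filter on low values, limma gave -1.27 (standard error 0.295, adjusted p = 0.0314), a call made for 35.5% of the genes then tested.

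Against WT, the treated cells also had 5 of the 6 genes called lower, where 73.9% of all genes were called, 43.8% lower and 30.1% higher. No libraries of the 6 genes overlapped, as for 91.9% of all genes, and the median log2 fold change was -1.38 against -0.36 for all genes. *Ano1* fell by 3.74, *Lrrc8a* by 2.42, *Slc12a2* by 1.86, *P2ry2* by 0.90 and *Kcnn4* by 0.65 on the log2 scale (limma, adjusted p from 4.01e-05 to 0.0208). In mean FPKM, *Kcnn4* was 3.52-fold lower and *P2ry2* 2.09-fold lower. *Ano6*, at -0.57 (adjusted p = 0.00543 in limma), was just under the fold change needed. *P2ry2* lost its call here, at -0.80 to -0.90, without WT replicate 1 or without either ADPKD+MMPP library. *P2ry2* (-0.64 and -0.40) and *Kcnn4* (-0.55 and 0.03) also lost their calls with TMM-type factors and quantile normalization. These comparisons share libraries with those above, so their values are not independent of each other. *Cftr* had 106 reads in WT and 2 in ADPKD+MMPP, a ratio relative to depth of 19.6 (95% counting interval 5.28 to 164), and the log2 fold change without a filter was -0.26 (adjusted p = 0.575 in limma), not called where 37.4% of genes were.

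**Figure D3:**
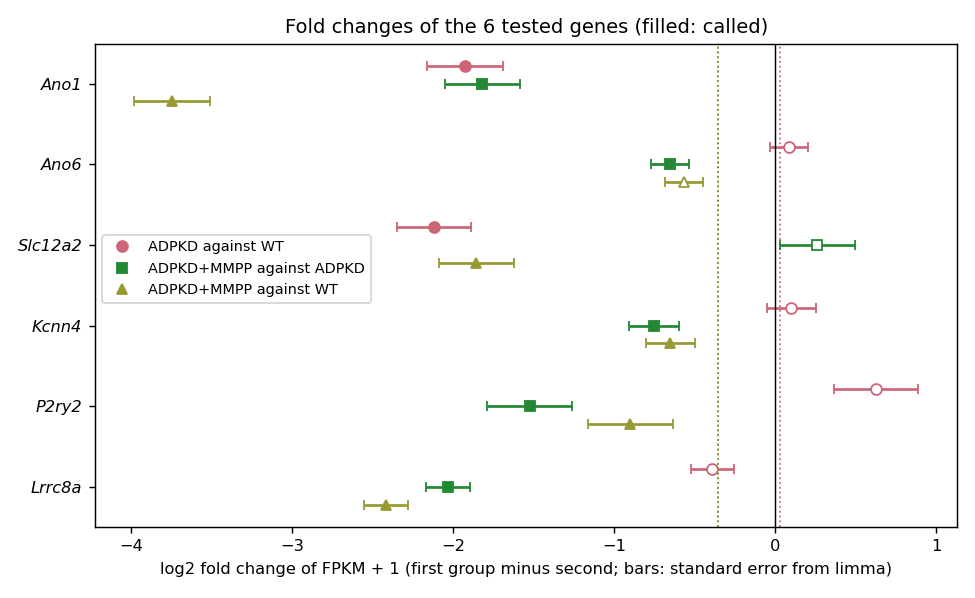
Log2 fold changes of FPKM + 1 with limma standard errors for the 6 tested genes in the 3 comparisons, filled where called, with dotted lines at the median of all genes tested (0.03 in ADPKD against WT and -0.36 in both comparisons with ADPKD+MMPP). *Slc12a2* and *Ano1* are the filled circles in ADPKD against WT, and *Slc12a2* is the only gene near 0 in ADPKD+MMPP against ADPKD.

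The change in the treated libraries followed gene structure. In GENCODE vM21, protein-coding genes were put in bins by how much of their exon sequence lay in a single annotated transcript. The median log2 fold change in ADPKD+MMPP against ADPKD was -1.70 in the lowest bin and 1.09 in the highest, whereas the bin medians in ADPKD against WT lay between -0.03 and 0.07. The share was 2.81% for *Lrrc8a*, 17.7% for *Cftr*, 26.7% for *Ano1*, 27.5% for *P2ry2*, 61.0% for *Kcnn4*, 67.2% for *Ano6* and 99.3% for *Slc12a2*. Beside their own values, the bin medians were -1.70 for *Lrrc8a*, -1.31 for *Ano1* and *P2ry2*, -0.10 for *Kcnn4*, 0.37 for *Ano6* and 1.09 for *Slc12a2*. All 6 genes lay below the median change of their bin.

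**Figure D4:**
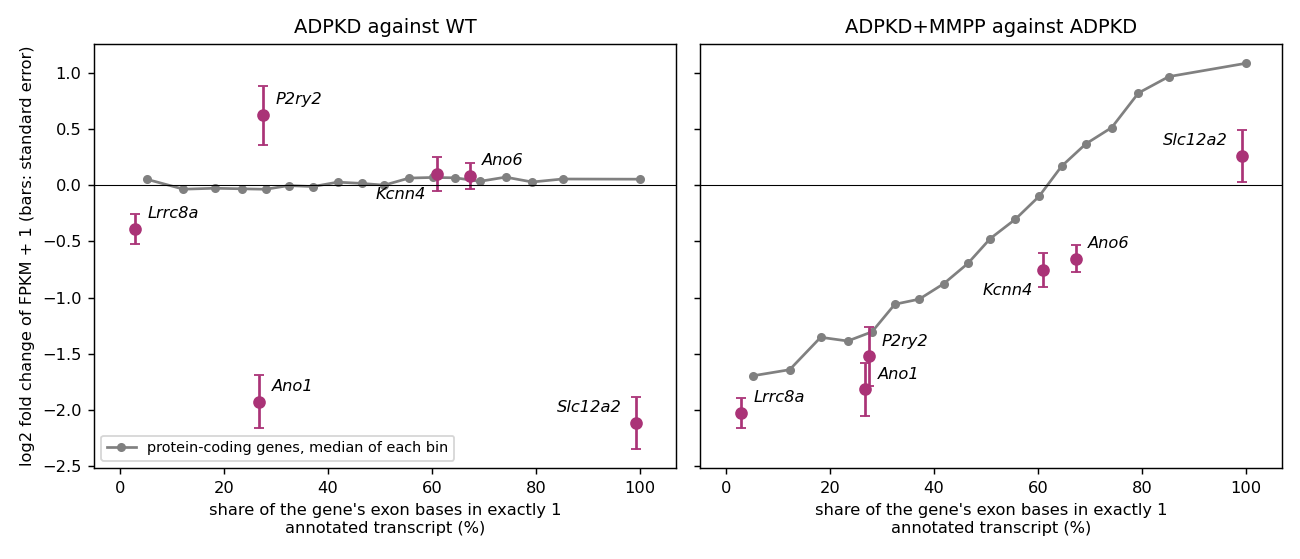
Log2 fold change of FPKM + 1 against the share of exon bases in a single annotated transcript (%), for the 6 tested genes with standard errors (points) and for the median of protein-coding genes in each bin (grey line). In ADPKD+MMPP against ADPKD the line climbs from -1.70 to 1.09 and all 6 genes lie below it, and in ADPKD against WT the line is flat and *Slc12a2* and *Ano1* lie far below it.

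Centring took from each library its own median level in the bin, and a difference between such medians need not equal the median change of the genes in the bin. When each library was centred in this way, *Lrrc8a* (0.08), *Ano1* (-0.10), *P2ry2* (0.20) and *Kcnn4* (-0.41) were no longer called in ADPKD+MMPP against ADPKD. *Ano6* kept its call, at -0.86 (standard error 0.120, adjusted p = 0.00108 in limma), and *Slc12a2* was called lower at -0.84 (standard error 0.227, adjusted p = 0.0159). Against WT, *Ano1* (-2.08), *Slc12a2* (-3.11) and *Ano6* (-0.79) were lower, *P2ry2* was called higher at 0.77, and *Lrrc8a* (-0.44) and *Kcnn4* (-0.38) were not called. The falls of *Slc12a2* (-2.26) and *Ano1* (-1.98) in ADPKD against WT were as large after centring. For *Cftr*, which was not in the centred fit, the bin that holds its share had a median of -1.35 in ADPKD+MMPP against ADPKD.

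The relatives of the channels did not all follow them. Of the other LRRC8 subunits, which join LRRC8A in the channel, *Lrrc8c* fell in ADPKD against WT, from 23.0 ± 2.12 to 9.16 ± 0.372 FPKM (log2 fold change -1.24, adjusted p = 0.00366 in limma), whereas *Lrrc8d* rose from 3.44 ± 0.332 to 8.35 ± 0.873 (1.07, adjusted p = 0.00562). *Lrrc8b* rose as well, by 0.65 on the log2 scale, a call lost with a common FPKM sum (0.58) and after centring (0.50). Of the summed FPKM of the 5 subunits, *Lrrc8c* made up 60.0% to 60.7% in WT and 28.4% to 31.0% in ADPKD, and *Lrrc8a* made up 13.7% to 13.8% and 11.9% to 12.4%. Between ADPKD+MMPP and ADPKD, *Lrrc8d* fell by 1.65 and the other 3 relatives were not called, whereas after centring by transcript share all 4 were called lower. In the deposited values *Lrrc8a* held 0.551% to 1.0% of the sum.

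Of the anoctamins beside *Ano1* and *Ano6*, 3 of 8 were tested. *Ano9* rose in ADPKD against WT, from 1.27 ± 0.121 to 2.72 ± 0.183 FPKM (0.71, adjusted p = 0.0140 in limma), and after treatment *Ano10* fell by 2.34 and *Ano8* by 1.23, of which *Ano8* was not called after centring (-0.11). Of the summed anoctamin FPKM as deposited, *Ano1* held 44.1% to 52.2% in WT, 15.3% to 20.5% in ADPKD and 6.77% to 7.03% after treatment. *Ano6* held 26.0% to 32.0%, 43.6% to 53.5% and 67.3% to 68.4%. After centring by transcript share, *Ano1* changed by -0.10 and *Ano6* by -0.86 in ADPKD+MMPP against ADPKD.

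**Figure D5:**
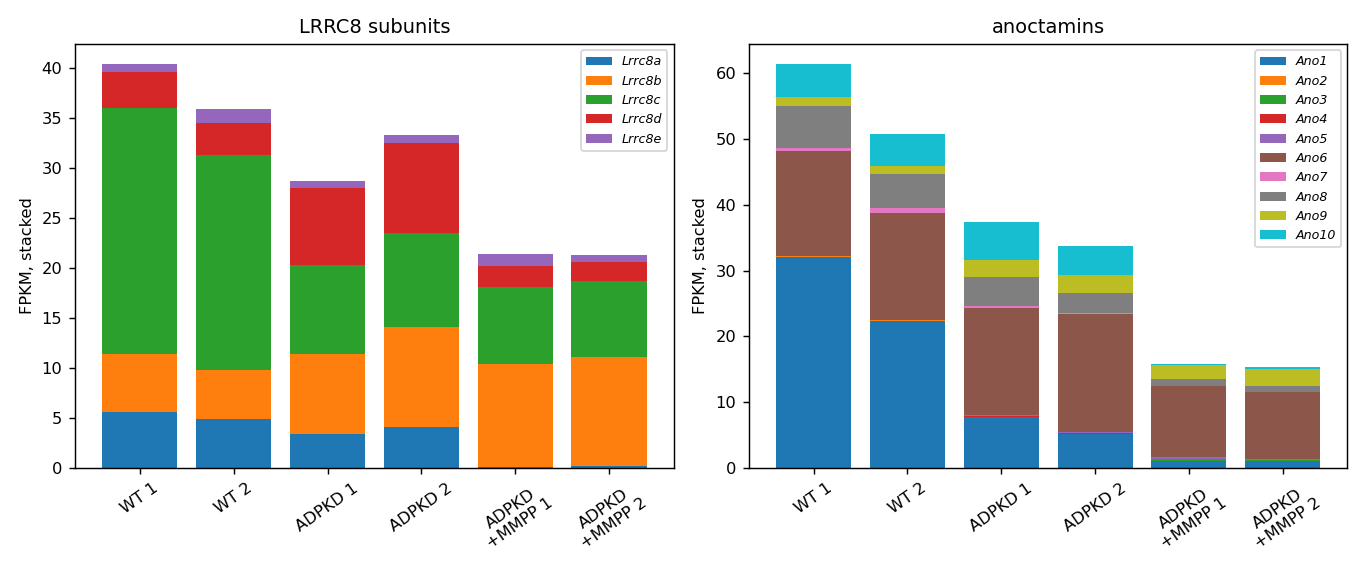
Stacked FPKM, as deposited and without centring, of the 5 LRRC8 subunits (left) and of 10 anoctamins (right) in each of the 6 libraries. *Lrrc8c* is the largest share in WT, *Lrrc8a* is barely visible in ADPKD+MMPP, and the *Ano1* segment shrinks from WT to ADPKD to ADPKD+MMPP while *Ano6* makes up most of what remains.

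Among 29 other chloride channels and exchangers, 19 were tested, and 3 were higher and 2 lower in ADPKD against WT. *Clca3a2* (2.90, adjusted p = 0.000976 in limma) and *Clca3a1* (2.87) rose most, from under 1 FPKM each, but these are close paralogs whose reads may be split between them. *Ttyh2* also rose (0.62), a call lost with a common FPKM sum (0.56), and *Clic5* (-2.28) and *Slc26a7* (-1.28), an anion exchanger of intercalated cells, fell. After treatment, 8 were higher and 8 lower, with *Clcn7*, a lysosomal chloride transporter, falling by 3.05 and *Clca3a1* by 3.03. The paralog *Clca3a2* rose by 1.58, from 7.15 to 23.4 FPKM, so the fall of *Clca3a1* does not hold for the pair. After centring 7 were higher and 6 lower of 18. Of genes that hold CFTR at the membrane, traffic it or degrade it, all 13 were tested. In ADPKD the scaffold *Slc9a3r2* (-2.36) and the kinase *Sgk1* (-1.07) fell, and *Ezr*, which links the scaffolds to actin (1.01), and *Dnajc5* (0.63) rose, the latter not called with a common FPKM sum (0.54). After treatment 11 of the 13 were lower, led by *Sgk1*, which fell by 5.03 from 175 to 4.39 FPKM, and *Slc9a3r2*, which fell by 3.54. *Ezr* (0.61) and *Slc9a3r1* (2.1) were higher, of which *Ezr* was not called with a common FPKM sum (0.30) or quantile normalization (0.12). The list median was -1.28, beside -0.36 for all genes. After centring 6 were lower and 1 higher, with a median of -0.50, and *Ezr* turned to -0.50.

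On the basolateral side, 1 of 6 sodium pump genes rose in ADPKD against WT, *Atp1b1* (0.61, adjusted p = 0.0727 in limma), and none fell. This call was lost under all 4 scalings tried (0.49 to 0.58). In the treated cells against ADPKD 4 rose, among them *Atp1b1* (1.87), *Fxyd2* (1.77) and *Atp1b3* (1.19). *Fxyd5* fell by 1.93. After centring 4 were again higher and 1 lower, but *Atp1b3* (0.07) was not among them. Of the kinases and adaptors that set NKCC1 activity, *Klhl3* (-1.24) and *Wnk1* (-0.77) were the 2 of 9 called in ADPKD against WT, both lower. After treatment 6 of the 9 were lower, led by *Wnk4*, which fell by 3.46, and *Wnk1*, by 2.51. The 2 higher were *Cab39l* (1.57) and *Oxsr1* (0.70), the latter not called with a common FPKM sum (0.41). After centring 3 were lower and 3 higher, and *Klhl3* was among the higher (1.13).

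Among relatives of *Slc12a2*, *Slc12a1* (-1.81) and *Slc12a3* (-2.63), counted above as thick limb and distal tubule markers, were called lower in ADPKD against WT. *Slc12a2* held 22.7% to 24.0% of the summed SLC12 FPKM as deposited in WT, 12.8% to 19.0% in ADPKD and 15.4% to 15.6% after treatment. The 5 further SLC12 genes are mostly potassium-chloride cotransporters that carry chloride out of the cell. Of these 5, *Slc12a7* rose (0.75) and *Slc12a5* fell (-0.83) in ADPKD against WT. With treatment 4 were lower, with *Slc12a4* falling by 3.13 from 23.4 to 1.80 FPKM, and *Slc12a9* was higher (1.28). After centring 2 were lower and 1 higher, but the higher gene was then *Slc12a5* (0.96, from -0.81 as deposited) and *Slc12a9* (0.47) was not called. Among 10 tested potassium channel genes beside *Kcnn4*, *Kcnj15* (2.05), *Kcnk5* (1.52) and *Kcnk1* (0.99) rose in ADPKD against WT, and *Kcne1* (-2.18, adjusted p = 0.0643 in limma) and *Kcne3* (-1.24), subunits that modify KCNQ1, fell. After treatment 6 were higher, among them *Kcnj10* at 2.90, and *Kcnj16* fell by 2.38 and *Kcnj15* by 1.88. After centring 6 were higher and none lower, with *Kcnj16* at -0.27 and *Kcnj15* at 0.06. The higher genes were not all the same, since *Kcne1* went from 2.05 to 0.94 and *Kcnk6* from 0.64 to -0.47, and neither was then called.

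Of the other P2 receptors, 6 of 13 were tested. *P2rx1* fell in ADPKD against WT, from 20.4 to 2.09 FPKM (-2.92, adjusted p = 0.00700 in limma), as did *P2ry1* (-1.19), and *P2ry6* rose (0.80). *P2ry2* made up 71.7% to 72.9% of the summed FPKM, as deposited, of 7 P2Y receptors in WT, 80.1% to 83.8% in ADPKD and 39.0% to 47.9% after treatment. In the treated libraries *P2ry6* made up 42.2% to 51.3%. With treatment *P2rx4* (-1.77) and *P2rx7* (-1.07) fell and *P2rx5* (1.17) and *P2ry6* (0.85) rose, but after centring *P2rx7* (0.65) and *P2ry6* (-0.26) had the opposite sign.

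Genes that release or break down ATP were listed together with the adenosine receptor genes *Adora1*, *Adora2a* and *Adora2b*. Of the 10 tested, 5 were called higher in ADPKD against WT, beside 14.2% of all genes, with a list median of 0.69. None of the receptor genes was called there. *Entpd2*, an ectonucleotidase, rose from 0.757 to 6.06 FPKM (2.0, adjusted p = 0.00348 in limma) and *Gja1*, which encodes connexin 43, from 1.79 to 9.12 FPKM (1.77, adjusted p = 0.0186). *Enpp3* (0.76), *Enpp1* (0.74) and the ATP channel gene *Panx1* (0.63) rose as well, and *Nt5e*, whose product makes adenosine from AMP, fell by 1.32. With a common FPKM sum 4 were called higher, without *Enpp3* (0.74). The leukocyte markers moved with these genes, with 8 of 9 tested called higher. So did those of fibroblasts and mural cells, with 4 of 7 called higher and 1 lower and summed FPKM of 111 to 138 in WT, 186 to 211 in ADPKD and 246 to 248 in ADPKD+MMPP. In ADPKD+MMPP against ADPKD, however, 3 of these 7 were called higher and 3 lower. The part of these cells was not tested. After treatment *Gja1* fell by 2.54, *Entpd1* by 1.45, *Adora1* by 1.03 and *Adora2a* by 1.01, and *Adora2b* rose by 1.01. The counts of 1 higher and 4 lower became 4 and 2 with quantile normalization, where *Adora1* and *Adora2a* (-0.40 each) were not called, and none and 4 with a common FPKM sum, where *Adora2b* (0.77) was not. After centring *Adora1* (0.91) and *Adora2b* (-0.10) had the opposite sign.

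In the calcium pathway between P2Y2 and TMEM16A, 4 of 18 genes were lower in ADPKD against WT, *Plcb1* (-1.49), *Plcb3* (-0.93), *Plcb2* (-0.65) and *Gnaq* (-0.61), and *Orai2* was higher (0.85). With treatment 12 were lower and 4 higher, with a list median of -1.64, beside -0.36 for all genes. The receptor channel *Itpr1* fell by 2.62, from 12.6 to 1.18 FPKM, and *Plcb3* by 2.52, and the 4 higher were *Calm3* (1.96), *Gna11* (1.33), *Gnaq* (1.07) and *Itpr3* (0.81). After centring 6 were lower and 4 higher, the median was -0.12, and 6 called genes changed sign. These were *Gnaq* (-0.03), *Itpr3* (-0.29), *Calm2* (0.36), *Orai2* (0.13), *Orai3* (0.03) and *Plcb1* (0.04), none of them called after centring.

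For each called gene, the tested genes with the most similar profile were found by the root mean square difference of log2(FPKM + 1), centred on its mean over the 6 libraries. Nearest to *Slc12a2* were *Epas1* (0.137) and *Gimap3* (0.159), and nearest to *Ano1* were *Piezo2* (0.0791) and *Tmcc2* (0.138). *Epas1*, a hypoxia-inducible factor gene, had 319 FPKM in WT, 84.2 in ADPKD and 99.1 after treatment, and *Piezo2*, a mechanosensitive channel gene, had 12.6, 2.87 and 0.0727. The nearest to *P2ry2* were *Krtcap3* (0.0828) and *Cars* (0.0888), and to *Lrrc8a* *Arhgef1* (0.0720) and *Zfp598* (0.0786). *Ankrd50* (0.0235) and *Zfp553* (0.0365) were nearest to *Ano6*, and *Ppm1a* (0.0419) and *Nid1* (0.0499) to *Kcnn4*. Genes with small changes have small differences on this measure.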

How the data were processed

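The authors aligned the reads to GRCm38/mm10 with HISAT2 2.1.0, counted them with featureCounts 1.6.0, and deposited FPKM, the unit used here, for each of the 6 libraries. The annotation release and the way FPKM was made are not given in the sources used here. The authors ran DESeq2 on counts. Here FPKM, which are not counts, were tested with limma 3.58.1 in R 4.3.3 on log2(FPKM + 1), in one fit without covariates over the 6 libraries and over all genes that reached FPKM 1 in 2 libraries or more. Calls needed a fold change of 1.5 and P under 0.05, after the methods of the study, and p-values were adjusted by Benjamini-Hochberg over all genes tested. The fit was also run on simulated data with independent noise. That simulation held none of the features of the ADPKD+MMPP values described above, so it does not bear on them. Positions and exon lengths came from GENCODE vM21 (GRCm38), which matched 53186 of the 55367 symbols. Read numbers recovered from FPKM gave the depth, from 10.9 to 33.1 M reads, and intervals and the floor of 3 reads cover counting error only.

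The genes and the lists were chosen with earlier results of these data known. Named genes were the 7 genes, *Pkd1*, defining markers, the 2 nearest profiles of each called gene and, per list and comparison, up to 2 called genes with the largest change, no overlap and a mean FPKM of 1 or more. A gene chosen by this rule is not reported here. Further list genes were named after their values were seen, where a count was 5 or fewer or where a family or list was described in full. Alternatives covered the pseudocount (0.1), the filter, scaling, centring by transcript share in 20 bins (18 after ties), the spread, thresholds, a replicate block and leaving out each library.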

Additional observations from a re-analysis of the deposited data

How the results depend on the processing

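In ADPKD against WT, the falls of *Slc12a2* and *Ano1* were called under every alternative run. The count of 2 became 3 with no filter, through *Cftr*, and without ADPKD replicate 1, through *P2ry2*, and leaving out each library gave 2 to 3 calls. In ADPKD+MMPP against ADPKD, the count of 5 became 3 with quantile normalization, 3 at a fold change of 2 and 2 after centring by transcript share, and leaving out each library gave 3 to 5. *Ano6* also lost its call with TMM-type factors. In ADPKD+MMPP against WT, the count of 5 became 3 with TMM-type factors, 3 with quantile normalization and 3 at a fold change of 2, and leaving out each library gave 4 to 5. After centring, *Lrrc8a* and *Kcnn4* were not called there and *P2ry2* was called higher, not lower. *Ano6* gained its call there with a common FPKM sum (-0.93), a pseudocount of 0.1 (-0.61), after centring (-0.79) and without ADPKD+MMPP replicate 1 (-0.60). Signs turned for *Kcnn4* with quantile normalization against WT (0.0324). After centring they turned for *Slc12a2* (-0.84), *P2ry2* (0.20) and *Lrrc8a* (0.0809) in ADPKD+MMPP against ADPKD, and for *P2ry2* (0.77) against WT. The cause was not tested. The median of all genes in ADPKD+MMPP against ADPKD moved from -0.36 to -0.55 with a common FPKM sum, -0.14 with TMM-type factors and 0.10 with quantile normalization. Of the called genes, 39.3% were higher as deposited, 54.0% with quantile normalization and 58.1% after centring. Against WT these shares were 40.8%, 52.9% and 57.3%. With the replicate block the counts of called genes in the order above were 2, 5 and 5. The correlations of same-numbered deviations were 0.129, -0.01 and 0.01, and the labels say of no number that it marks a shared animal or day, so the numbers were not taken to pair the libraries. *Cftr* had 2 reads or fewer in each ADPKD+MMPP library, and *Lrrc8a* and *Kcnn4* rested there on 6 to 18 reads a library.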
